A study of Mus musculus with 16 samples.

Results

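The myelin genes described here are Mbp, Mog, Mag, Mobp, Cnp, Mal, Cldn11, Ugt8a and Aspa. They were chosen by name: a probe set was taken where the array annotation gave it 1 symbol and that symbol was one of the 9. Each gene matched 1 probe set, so the set holds 9 of the 21789 probe sets with 1 symbol and 9 of the 19936 genes tested. The matching of probe sets used no measured value, but the genes and lists were chosen with earlier results of these data known. Total RNA from 16 mouse brain samples was measured on Affymetrix arrays, with 4 arrays in each of 4 groups. The normal brain group was wild type for Pdgfb, Trp53 and Rbpj, and the brain region was not given in the sources used here. To make PDGF+p53-/- tumours, a retrovirus carrying PDGF-B and Cre recombinase on a single transcript was given to mice whose p53 alleles were floxed. The same virus in mice that carried floxed RBPjk as well gave PDGF+p53-/-RBPjk-/- tumours. RBPjk, the product of Rbpj, is the DNA-binding partner of activated Notch receptors. In p53-/-RBPjk-/- tumours no PDGF-B was supplied, and the 2 floxed genes were deleted in Hes5-expressing cells through an Hes5::CreERT2 transgene. All 3 tumour types therefore share the loss of p53, and the ages of the mice were not given in the sources used here.

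Myelin is the stacked membrane that oligodendrocytes wrap around axons in the brain. Precursor cells that express Pdgfra and Cspg4 stop dividing and pass through a stage marked by genes such as Bcas1, Gpr17 and Enpp6. Sheath proteins are made under transcription factors that include Sox10, Olig1, Olig2 and Myrf. White matter is where mature myelin is most abundant.

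The deposited values are log2 expression on the scale of robust multi-array average (RMA) processing, and a difference of 1 is a doubling. Array medians lay between 5.97 and 6.06, and arrays of the same group correlated across genes with r from 0.967 to 0.984. Arrays limit precision here through their number, 4 per group. The labels do not say that the replicates came from separate mice, so each p-value sets a difference against a spread between samples that may in part be technical. Rbpj read 8.17 to 8.50 in PDGF+p53-/- tumours, 7.55 to 7.88 in PDGF+p53-/-RBPjk-/- tumours, 7.64 to 7.93 in p53-/-RBPjk-/- tumours and 7.76 to 8.21 in normal brain. Pdgfb read 5.81 to 6.31 and 5.88 to 6.19 in the types labelled as overexpressing it, 5.69 to 6.20 in normal brain and 5.23 to 5.77 in p53-/-RBPjk-/- tumours, whose 4 arrays lay below those of both PDGF-driven types. Whether these probe sets cover the deleted part of Rbpj or the viral Pdgfb transcript was not given in the sources used here, and Trp53 was not analysed here. Tumours were cut out under the light of a Cre-dependent green fluorescent reporter, so host brain may remain in a sample. The third PDGF+p53-/- array stood apart from the other 3 of its type: its mean over 15 neuron markers was 8.51, against 7.19 to 7.39 in the others and 10.16 to 10.45 in normal brain. These are bulk samples, in which fewer cells of a type and less RNA per cell cannot be told apart.

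In each tumour type 6 of the 9 myelin genes fell relative to normal brain: Mbp, Mog, Mag, Mobp, Mal and Aspa. Cnp, Cldn11 and Ugt8a did not pass the test in any of the 3 types, and none of the 9 rose. A gene was called where the limma fit over all 19936 genes gave a Benjamini-Hochberg adjusted p below 0.05. By the same rule 17.6% of all genes fell in PDGF+p53-/- tumours, 17.9% in PDGF+p53-/-RBPjk-/- tumours and 20.4% in p53-/-RBPjk-/- tumours. The median log2 difference over the 9 genes was -1.71, -1.42 and -2.66 in that order, beside medians of -0.04, -0.03 and -0.02 over all genes tested. All 3 comparisons use the same 4 normal brain arrays.

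**Figure D1:**
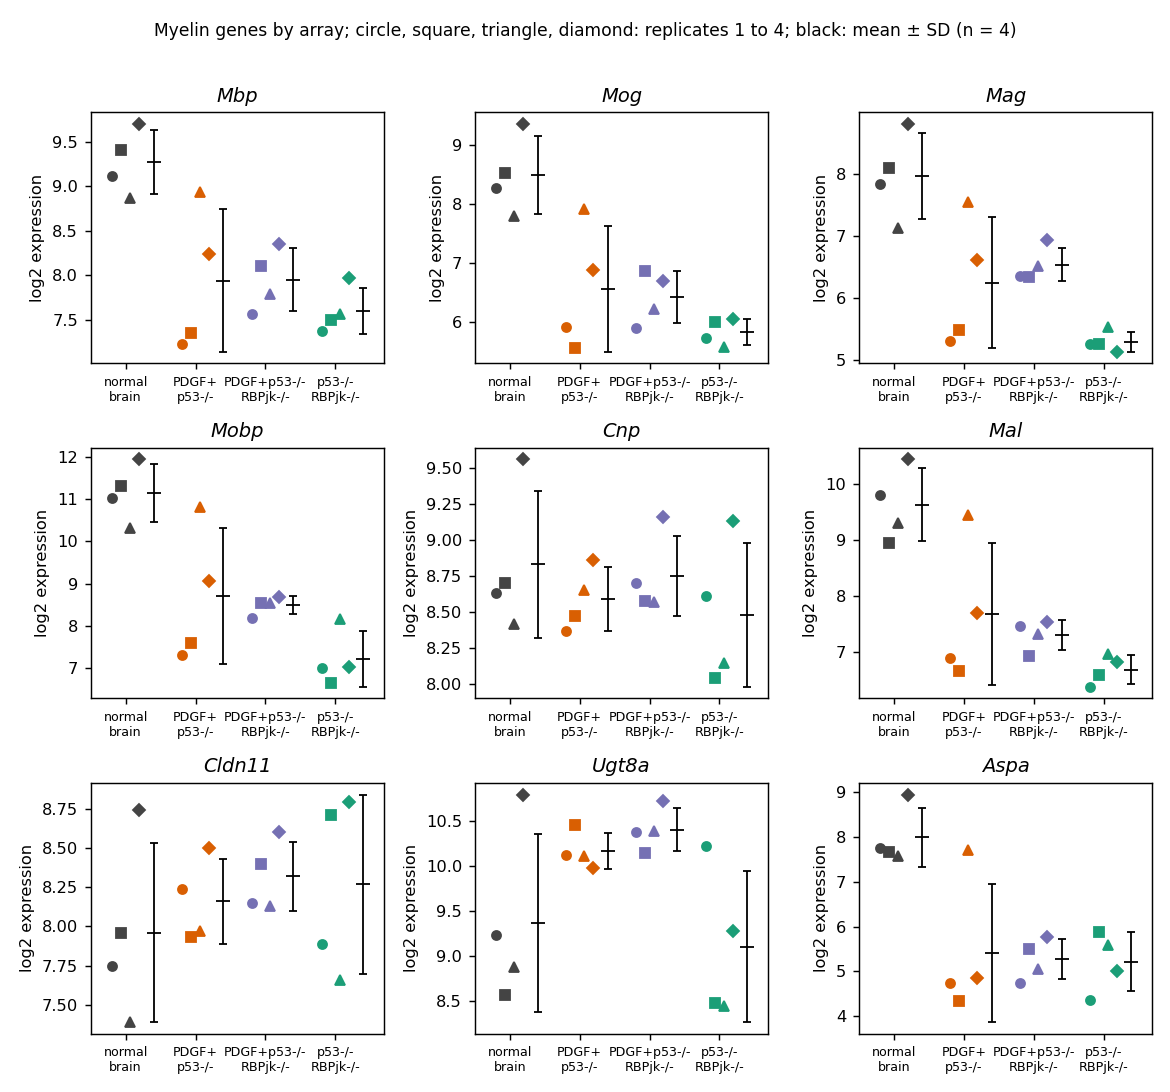
Log2 expression of the 9 myelin genes in each of the 16 arrays, by group; symbols give the replicate number and the black bar the mean ± SD of 4 arrays. Mobp fell from a mean of 11.15 in normal brain to 7.21 in p53-/-RBPjk-/- tumours, while Cnp means lay between 8.48 and 8.83 in all 4 groups; replicate 3 of the PDGF+p53-/- tumours (triangle) is the highest of its group for the 6 genes that fell.

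Mobp, which encodes a small basic protein of the compact sheath, had the largest fall of the 9 genes in p53-/-RBPjk-/- tumours. In normal brain it read 11.03, 11.31, 10.32 and 11.95. In PDGF+p53-/- tumours it read 7.32, 7.59, 10.82 and 9.07. The other arrays gave 8.18, 8.54, 8.54 and 8.69 in PDGF+p53-/-RBPjk-/- tumours and 6.99, 6.65, 8.17 and 7.02 in p53-/-RBPjk-/- tumours. All 8 arrays from tumours without RBPjk lay below all 4 from normal brain, whereas the third PDGF+p53-/- array lay within the normal range. Mobp was 5.46-fold lower in PDGF+p53-/- tumours (log2 difference -2.45 ± 0.56, SE, adjusted p = 0.00244), 6.35-fold lower in PDGF+p53-/-RBPjk-/- tumours (-2.67, adjusted p = 0.00109) and 15.4-fold lower in p53-/-RBPjk-/- tumours (-3.94, adjusted p = 1.89e-05). As a share of the normal brain mean, the 4 PDGF+p53-/- arrays held 7.02%, 8.48%, 79.6% and 23.7%. The 4 p53-/-RBPjk-/- arrays held 5.58%, 4.42%, 12.7% and 5.71%.

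The sequence just before the start site is given for 3 genes that fell, Mobp, Mag and Mog, and for Cnp, which did not pass the test, so that the words found in them can be compared. The sequences are the 250 bases upstream of the annotated start in RefSeq on GRCm38.p6, read 5′ to 3′ on the gene's own strand. Upstream sequence was at hand for 8 of the 9 genes, and Mbp was not among them. The genes shown are those of the 8 with a match to the words marked in capitals. Mal and Aspa, which fell, held none of the marked words, and neither did Cldn11 and Ugt8a. For Mag the matches were found upstream of the first and second listed start sites but not of the third. Capitals mark matches, on either strand, to CTGGCAC or CTGGTAC, words that the myelin regulator MYRF binds, or to ACAAAG, a core word of SOX factors. The intervals are chr9:120149492-120149741 on the plus strand for Mobp, chr7:30914864-30915113 on the minus strand for Mag (the first of its 3 listed start sites), chr17:37023399-37023648 on the minus strand for Mog and chr11:100574689-100574938 on the plus strand for Cnp.
Mobp: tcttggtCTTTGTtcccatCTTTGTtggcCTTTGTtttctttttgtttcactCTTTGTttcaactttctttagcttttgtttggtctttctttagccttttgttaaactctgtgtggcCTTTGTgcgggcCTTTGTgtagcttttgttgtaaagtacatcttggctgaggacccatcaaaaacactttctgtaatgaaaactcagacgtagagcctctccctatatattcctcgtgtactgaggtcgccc
Mag: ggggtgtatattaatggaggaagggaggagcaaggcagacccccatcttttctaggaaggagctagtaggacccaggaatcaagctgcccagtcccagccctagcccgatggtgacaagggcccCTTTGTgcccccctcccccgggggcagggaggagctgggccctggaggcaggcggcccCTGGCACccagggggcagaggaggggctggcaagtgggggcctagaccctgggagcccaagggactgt
Mog: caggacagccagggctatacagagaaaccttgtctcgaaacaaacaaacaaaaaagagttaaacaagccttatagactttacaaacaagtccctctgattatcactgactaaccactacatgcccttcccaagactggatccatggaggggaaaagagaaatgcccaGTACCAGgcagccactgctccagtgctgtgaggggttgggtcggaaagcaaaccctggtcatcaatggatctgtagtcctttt
Cnp: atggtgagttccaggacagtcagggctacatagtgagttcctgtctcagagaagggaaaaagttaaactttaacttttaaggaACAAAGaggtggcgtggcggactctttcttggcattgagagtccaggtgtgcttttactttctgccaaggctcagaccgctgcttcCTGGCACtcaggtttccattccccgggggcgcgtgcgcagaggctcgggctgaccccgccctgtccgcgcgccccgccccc
CTGGCAC occurred in Mag, with its first base at -68 from the start, and in Cnp at -81. It occurred in 5.01% of all 32851 promoters, each taken from 250 bases before to 50 after the start. CTGGTAC occurred in Mog on the reverse strand at -83, and in 2.24% of promoters. The Mobp sequence held 6 matches to ACAAAG, all on the reverse strand and so seen as CTTTGT, and was the 1 promoter of 32851 with that many. The cut-off of 6 was the count in Mobp itself, so Mobp was bound to reach it and this rank is no test. The matches lie in a stretch rich in T with similar repeated words. ACAAAG also occurred once each in Mag and Cnp, and in 18.7% of all promoters at least once. Of the other words searched, CAGCTG and CATCTG each matched in Aspa alone among the 8 genes (16.3% and 17.2% of promoters) and ACAATG in none of the 8 (12.6%). The words therefore occur in genes that fell and in Cnp, and a match of letters is a description, not a site.

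Mbp, the protein that holds the inner faces of the compact membrane together, had the smallest falls of the 6. Its levels in normal brain were 9.11, 9.41, 8.87 and 9.70. Those of PDGF+p53-/- tumours were 7.23, 7.35, 8.94 and 8.24, those of PDGF+p53-/-RBPjk-/- tumours 7.56, 8.10, 7.79 and 8.35, and those of p53-/-RBPjk-/- tumours 7.37, 7.50, 7.56 and 7.97. The third PDGF+p53-/- array was above the lowest normal brain array, and every other tumour array was below all of them. Mbp was 2.52-fold lower in PDGF+p53-/- tumours (-1.33 ± 0.30, SE, limma adjusted p = 0.00225), 2.50-fold lower in PDGF+p53-/-RBPjk-/- tumours (adjusted p = 0.00216) and 3.19-fold lower in p53-/-RBPjk-/- tumours (adjusted p = 0.000225).

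Mal, a membrane proteolipid of compact myelin that takes part in sorting cargo to the sheath, read 9.63 ± 0.65 (SD, n = 4) in normal brain. Its PDGF+p53-/- arrays read 6.90, 6.66, 9.45 and 7.70. PDGF+p53-/-RBPjk-/- tumours ranged from 6.93 to 7.54 and p53-/-RBPjk-/- tumours from 6.38 to 6.97. The lowest normal brain array, at 8.95, was above all tumour arrays except the third PDGF+p53-/- array. Mal was lower by 3.86-fold, 4.97-fold and 7.66-fold in PDGF+p53-/-, PDGF+p53-/-RBPjk-/- and p53-/-RBPjk-/- tumours (log2 differences -1.95, -2.31 and -2.94, each ± 0.44, SE, with limma adjusted p of 0.00222, 0.000455 and 3.37e-05).

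Mog and Mag, 2 proteins of the immunoglobulin superfamily, sit on the outermost sheath surface and on the inner membrane facing the axon. Mog read 8.27, 8.53, 7.80 and 9.36 in normal brain and 5.91, 5.55, 7.92 and 6.88 in PDGF+p53-/- tumours. It read 5.89, 6.86, 6.22 and 6.69 in PDGF+p53-/-RBPjk-/- tumours and 5.57 to 6.04 in p53-/-RBPjk-/- tumours. Only the third PDGF+p53-/- array reached the normal range. Mog was 3.80-fold, 4.21-fold and 6.30-fold lower in that order of tumour types (log2 differences -1.93, -2.07 and -2.66, each ± 0.41, SE, with limma adjusted p of 0.00126, 0.00059 and 4.14e-05).

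Mag read 7.83, 8.09, 7.12 and 8.80 in normal brain and 5.32, 5.49, 7.55 and 6.62 in PDGF+p53-/- tumours. It read 6.36, 6.34, 6.52 and 6.93 in PDGF+p53-/-RBPjk-/- tumours and 5.26, 5.26, 5.53 and 5.14 in p53-/-RBPjk-/- tumours. The 4 p53-/-RBPjk-/- arrays lay below all 4 PDGF+p53-/-RBPjk-/- arrays as well as below normal brain. Against normal brain Mag was 3.28-fold lower in PDGF+p53-/- tumours (-1.71 ± 0.39, SE, limma adjusted p = 0.00237), 2.67-fold lower in PDGF+p53-/-RBPjk-/- tumours (adjusted p = 0.00834) and 6.33-fold lower in p53-/-RBPjk-/- tumours (adjusted p = 2.66e-05).

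Aspa encodes aspartoacylase, the oligodendrocyte enzyme that cleaves N-acetylaspartate made by neurons and so frees acetate for lipid synthesis. It read 7.76, 7.67, 7.57 and 8.95 in normal brain and 4.74, 4.34, 7.72 and 4.86 in PDGF+p53-/- tumours. It ranged from 4.75 to 5.77 in PDGF+p53-/-RBPjk-/- tumours and from 4.37 to 5.87 in p53-/-RBPjk-/- tumours. The third PDGF+p53-/- array, at 83% of the normal brain mean, differed from the other 3 of its type, which held 7.95% to 11.4%. Aspa was 5.96-fold, 6.60-fold and 6.88-fold lower in the 3 types (log2 differences -2.58, -2.72 and -2.78, each ± 0.56, SE, with limma adjusted p of 0.00155, 0.000859 and 0.00059).

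Counted over arrays, the 6 falling genes were lower than all normal brain arrays in all 4 arrays of PDGF+p53-/-RBPjk-/- and of p53-/-RBPjk-/- tumours, where the exact two-sided permutation p of each was 0.0286, the smallest that 4 against 4 arrays allow. Of all genes tested, 18% and 19.3% were lower without overlap in those comparisons. In PDGF+p53-/- tumours 0 of the 9 genes were lower without overlap, beside 17.3% of all genes, because the third array reached the normal range for each of the 6. The exact p there was 0.0571 for Mbp, Mog, Mag and Mobp and 0.0857 for Mal and Aspa. Without that array the fall in PDGF+p53-/- tumours was -1.66 for Mbp, -2.38 for Mog, -2.15 for Mag, -3.16 for Mobp, -2.54 for Mal and -3.35 for Aspa, with limma adjusted p between 1.42e-06 and 6.76e-05.

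**Figure D2:**
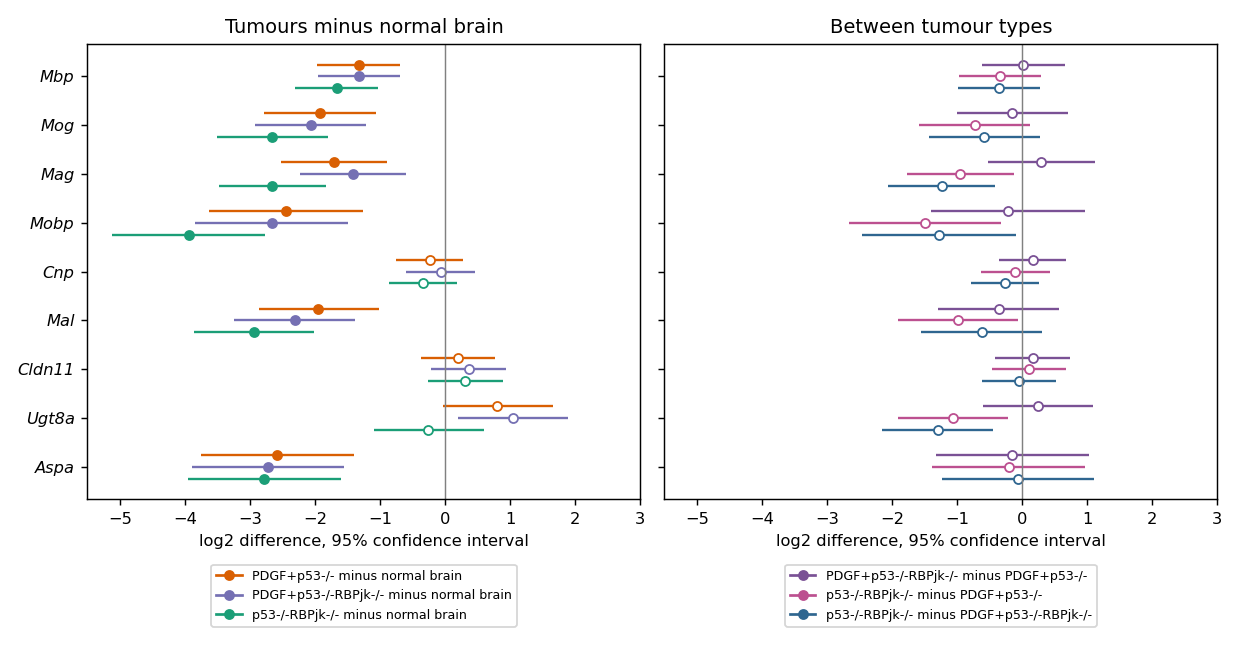
Log2 differences of the 9 myelin genes with 95% confidence intervals, tumours minus normal brain (left) and between tumour types (right); filled points have an adjusted p below 0.05 and open points do not. Mbp, Mog, Mag, Mobp, Mal and Aspa have filled points in all 3 tumour types on the left, and every point on the right is open.

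Cnp, Cldn11 and Ugt8a stood apart from these 6. Cnp encodes an enzyme-like protein that keeps cytoplasmic channels open in the sheath. It read 8.63, 8.70, 8.42 and 9.56 in normal brain, against group means of 8.59, 8.75 and 8.48 in PDGF+p53-/-, PDGF+p53-/-RBPjk-/- and p53-/-RBPjk-/- tumours. The arrays of all 4 groups overlapped. The 95% confidence intervals of the log2 differences from normal brain ran from -0.76 to 0.28, from -0.60 to 0.45 and from -0.86 to 0.18 in that order (limma adjusted p of 0.532, 0.862 and 0.316), so a fall of the size seen for Mbp lay outside all 3.

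Cldn11, the claudin that forms the tight junctions between the turns of the sheath, read 7.75, 7.96, 7.39 and 8.74 in normal brain. Tumour means were 8.16 ± 0.27 (SD, n = 4) in PDGF+p53-/-, 8.32 ± 0.22 in PDGF+p53-/-RBPjk-/- and 8.27 ± 0.57 in p53-/-RBPjk-/- tumours. Each tumour group overlapped normal brain. The intervals of the difference were -0.37 to 0.77, -0.22 to 0.93 and -0.27 to 0.88 (limma adjusted p of 0.648, 0.363 and 0.429).

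Ugt8a makes galactosylceramide, the main glycolipid of myelin. It read 9.23, 8.56, 8.87 and 10.79 in normal brain. PDGF+p53-/- tumours read 10.12, 10.45, 10.11 and 9.97, PDGF+p53-/-RBPjk-/- tumours 10.37, 10.14, 10.38 and 10.72, and p53-/-RBPjk-/- tumours 10.22, 8.48, 8.44 and 9.27. In the 8 arrays of the PDGF-driven types Ugt8a was above 3 of the 4 normal brain arrays, and the fourth normal array was the highest of all 16. The log2 difference was 0.80 ± 0.40 (SE, limma adjusted p = 0.149) in PDGF+p53-/- tumours, 1.04 in PDGF+p53-/-RBPjk-/- tumours (adjusted p = 0.0547) and -0.26 in p53-/-RBPjk-/- tumours (adjusted p = 0.671). Without the fourth normal brain array the differences were 1.28 (adjusted p = 0.00614), 1.52 (adjusted p = 0.00154) and 0.22 (adjusted p = 0.663), so that Ugt8a then passed the test as higher in both PDGF-driven types. In PDGF+p53-/-RBPjk-/- tumours it passed in 9 of 26 alternative settings, among them those without p53-/-RBPjk-/- replicate 1 (adjusted p = 0.0273) and replicate 3 (adjusted p = 0.0482).

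The fourth normal brain array was the highest of its group for 9 of the 9 genes, and the third was the lowest for 7. The 6 falling genes passed the test without the fourth array as well; Mobp, for example, then differed by -2.19 (limma adjusted p = 0.0111), -2.40 (adjusted p = 0.00529) and -3.68 (adjusted p = 0.00013). The means over the 9 genes were 8.82, 8.80, 8.41 and 9.81 in the 4 normal brain arrays. Within PDGF+p53-/- tumours they were 7.13, 7.09, 8.79 and 7.86, a wider range than the 7.49 to 8.05 of PDGF+p53-/-RBPjk-/- tumours or the 6.98 to 7.24 of p53-/-RBPjk-/- tumours.

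Because each array carries all 9 genes, the difference between a pair of genes within an array does not change when the whole array is shifted. A few pairs are given as a description, with no test, since they were picked after the single-gene results were known. Mobp minus Ugt8a changed from normal brain by -3.25, -3.71 and -3.69 on the log2 scale in PDGF+p53-/-, PDGF+p53-/-RBPjk-/- and p53-/-RBPjk-/- tumours. In each type the 4 tumour arrays lay below all 4 normal arrays. Mbp minus Cnp changed by -1.09, -1.25 and -1.33, and Mbp minus Cldn11 by -1.53, -1.68 and -1.98. For these last pairs the PDGF+p53-/- arrays overlapped normal brain, and those of the other tumour types did not. Over all 36 pairs of the 9 genes, 11, 27 and 24 had no overlap with normal brain in the 3 types. Of the 18 pairs that join one of the 6 falling genes with Cnp, Cldn11 or Ugt8a, these were 10, 18 and 17. Among the 15 pairs within the 6 falling genes they were 0, 7 and 6. The split into falling and other genes was taken from the same values, so these counts do not test it. The share without overlap among pairs of all genes was not computed, so whether these counts are unusual is not known.

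Between tumour types the same 9 genes were compared to ask whether PDGF-B or the loss of RBPjk went with a different myelin gene level. The p53-/-RBPjk-/- tumours differ from the PDGF-driven types in PDGF-B, in the route of Cre (Hes5::CreERT2 transgene or virus) and in sex pattern. These differences cannot be told apart here. PDGF+p53-/-RBPjk-/- tumours were set against PDGF+p53-/- tumours, which differ from them by label in RBPjk alone. None of the 9 genes passed the limma test, beside 0.0201% of all genes. At an unadjusted p below 0.05 there were 0 of 9, beside 5.18% of all genes. Mean differences ran from -0.36 for Mal to 0.29 for Mag. The 95% confidence intervals were -0.62 to 0.65 for Mbp, -0.53 to 1.12 for Mag, -1.40 to 0.96 for Mobp, -1.29 to 0.56 for Mal and -0.61 to 1.08 for Ugt8a, so differences within these intervals are not excluded. Without the third PDGF+p53-/- array the difference for Mog became 0.31, for Mobp 0.49, for Mal 0.23 and for Aspa 0.62, none of which passed the test.

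p53-/-RBPjk-/- tumours had the lowest mean of the 3 tumour types for Mbp, Mog, Mag, Mobp, Cnp, Mal, Ugt8a and Aspa, but no difference passed the adjusted threshold. Against PDGF+p53-/- tumours 0 of 9 genes passed in limma and 4 had an unadjusted p below 0.05, beside 5.54% and 19.1% of all genes. All 4 p53-/-RBPjk-/- arrays but 1 of 4 in each PDGF-driven type had the female expression pattern, and with a sex term 0.918% of all genes passed here and 0.306% against PDGF+p53-/-RBPjk-/- tumours. The 4 were Mobp (-1.49, 95% confidence interval -2.67 to -0.32, adjusted p = 0.136), Ugt8a (-1.06, -1.91 to -0.22, adjusted p = 0.14), Mal (-0.99, -1.91 to -0.06, adjusted p = 0.223) and Mag (-0.95, -1.77 to -0.13, adjusted p = 0.179). Mobp passed in 1 of 26 settings, without PDGF+p53-/- replicate 1 (-1.96, adjusted p = 0.0407). Ugt8a passed in 2 of 26: without p53-/-RBPjk-/- replicate 1 (-1.43, adjusted p = 0.0331) and without the fourth normal brain array (adjusted p = 0.0497), which enters through the shared spread.

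Against PDGF+p53-/-RBPjk-/- tumours, which share the loss of RBPjk and p53, 0 of 9 genes passed in limma and 3 had an unadjusted p below 0.05, beside 3.27% and 16.5% of all genes. Ugt8a differed by -1.30 (95% confidence interval -2.15 to -0.45, adjusted p = 0.0883, exact two-sided permutation p = 0.0571). Mag differed by -1.24 (-2.06 to -0.42, adjusted p = 0.0935) and Mobp by -1.28 (-2.46 to -0.10, adjusted p = 0.257), and for each of these 2 genes the 4 p53-/-RBPjk-/- arrays lay below the 4 PDGF+p53-/-RBPjk-/- arrays (exact p = 0.0286), as they did for 6.25% of all genes. Mag passed in 2 of 26 settings: without PDGF+p53-/- replicate 3 (adjusted p = 0.0299) and with the 8 arrays of the 2 groups alone (adjusted p = 0.00544). Mobp passed in 1 of 26, with those 8 arrays (adjusted p = 0.045). Over the settings the limma adjusted p reached 0.387 for Mag and 0.642 for Mobp. Ugt8a passed in 3 of 26 settings: with array weights (adjusted p = 0.0411), without the fourth normal brain array (adjusted p = 0.0286) and without p53-/-RBPjk-/- replicate 1 (-1.67, adjusted p = 0.0223).

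Other genes of the sheath and of mature oligodendrocytes were mixed, with more falls than rises. Of the 28 such genes measured, 8 fell and 3 rose in PDGF+p53-/- tumours, and 12 fell and 3 rose in PDGF+p53-/-RBPjk-/- tumours. In p53-/-RBPjk-/- tumours 13 fell and 3 rose. Of all genes, 17.6%, 17.9% and 20.4% fell and 13.6%, 15.7% and 16.4% rose in that order of types. Median differences over the 28 were -0.31, -0.34 and -0.34. The falls included Ermn, a cytoskeletal protein of late oligodendrocytes (-2.55, -2.90 and -3.82, with limma adjusted p of 0.0026, 0.000801 and 4.5e-05). Gpr37, a receptor of mature oligodendrocytes, differed by -2.14, -2.31 and -2.56, and Car2, a carbonic anhydrase, by -1.57, -2.02 and -2.57. Tppp, a tubulin-binding protein, fell by 1.75, 1.56 and 1.97 on the log2 scale. Septin4, whose protein is part of the septin scaffold in the innermost sheath, reached -2.31 in p53-/-RBPjk-/- tumours. The genes that rose, named here after their values were seen, were the connexin gene Gjc3 (1.33, 1.11 and 1.90), the adhesion gene Jam3 (1.34, 1.28 and 0.64), the proteolipid gene Pllp in the PDGF-driven types (1.02 and 1.22) and Padi2 in p53-/-RBPjk-/- tumours (0.81). The rise of Gjc3 in PDGF+p53-/-RBPjk-/- tumours was lost on leaving out normal brain replicate 1, 2 or 3 or PDGF+p53-/-RBPjk-/- replicate 4 (0.79 and adjusted p = 0.0787 without the last). That of Padi2 was lost without normal brain replicate 3 or p53-/-RBPjk-/- replicate 1 or 4 (0.66 and adjusted p = 0.0731 without the last).

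**Figure D3:**
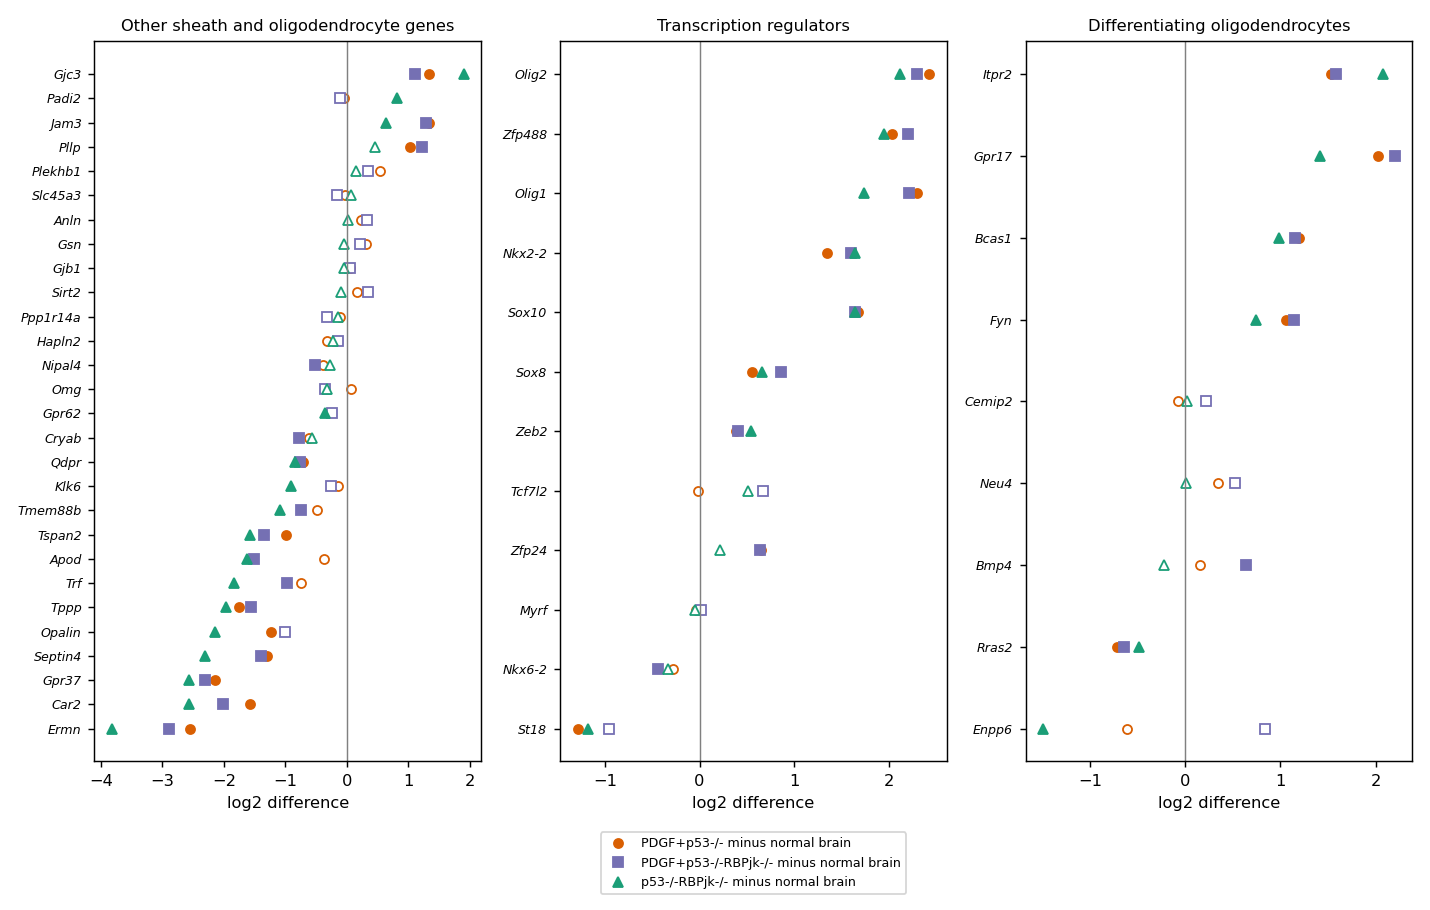
Log2 differences from normal brain in the 3 tumour types for other sheath and oligodendrocyte genes (left), transcription regulators of the lineage (middle) and genes of differentiating oligodendrocytes (right); filled symbols have an adjusted p below 0.05. Ermn, Gpr37 and Car2 lie at the low end on the left, Olig2 and Zfp488 lie near 2 in the middle, and Enpp6 on the right is filled in p53-/-RBPjk-/- tumours alone.

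Genes for the synthesis of myelin lipids, in which Ugt8a and Aspa take part, went both ways. Of 10 measured, 4 rose and 1 fell in each PDGF-driven type, and 2 rose and 3 fell in p53-/-RBPjk-/- tumours. Medians were 0.35, 0.36 and 0.29 in PDGF+p53-/-, PDGF+p53-/-RBPjk-/- and p53-/-RBPjk-/- tumours. In that order 13.6%, 15.7% and 16.4% of all genes rose and 17.6%, 17.9% and 20.4% fell. Hsd17b12, an enzyme of fatty acid elongation, rose by 0.85, 0.96 and 0.47. Elovl1, another enzyme of elongation, rose in the PDGF-driven types (0.70 and 0.68), though not without normal brain replicate 3 (adjusted p = 0.0591 in PDGF+p53-/-RBPjk-/- tumours), normal brain replicate 1 or PDGF+p53-/- replicate 2 (adjusted p = 0.0566 in PDGF+p53-/- tumours). Sptlc1, a subunit of the first enzyme of sphingolipid synthesis, named after its values were seen, rose by 0.50, 0.54 and 0.65. Cers2, the ceramide synthase for very long acyl chains, differed by 0.69, 0.72 and 0.49, the last with an adjusted p of 0.0569. Nat8l, which in neurons makes the N-acetylaspartate that Aspa cleaves, differed by -0.54, -0.61 and -0.81 and was the fall in the PDGF-driven types. Fa2h, which hydroxylates the fatty acids of galactosylceramide, passed in p53-/-RBPjk-/- tumours (-1.02 ± 0.33, SE, limma adjusted p = 0.0219). The third fall there was that of Degs1, a desaturase of ceramide synthesis, named after its values were seen (-0.42, adjusted p = 0.0184). Both calls rested on single arrays: Fa2h was -0.62 (adjusted p = 0.082) without the fourth normal brain array and was lost also without p53-/-RBPjk-/- replicate 3. Degs1 was -0.34 (adjusted p = 0.0711) without normal brain replicate 2 and was lost also without normal brain replicate 4 or p53-/-RBPjk-/- replicate 4. Without the fourth normal brain array 1 gene of the list fell and 4 rose in p53-/-RBPjk-/- tumours.

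Transcription regulators of the lineage were mostly higher in the tumours. Of 12 measured, 8 rose in PDGF+p53-/- and in PDGF+p53-/-RBPjk-/- tumours and 7 rose in p53-/-RBPjk-/- tumours, and 1 fell in each type. Their medians were 0.60, 0.76 and 0.60. Over all genes the shares were 13.6%, 15.7% and 16.4% for rises and 17.6%, 17.9% and 20.4% for falls. Olig2 rose by 2.43, 2.30 and 2.12, Olig1 by 2.30, 2.22 and 1.74, and Sox10, which with Myrf activates many sheath genes, by 1.68, 1.64 and 1.64. Zfp488, a zinc finger protein of the lineage, rose by 2.04, 2.21 and 1.95. Myrf itself, named after its values were seen, differed by -0.04, 0.02 and -0.05 (± 0.23, SE, limma adjusted p of 0.927, 0.964 and 0.886). The genes that fell, also named after the fact, were St18 in PDGF+p53-/- (-1.29, adjusted p = 0.0145) and p53-/-RBPjk-/- tumours (-1.18, adjusted p = 0.0203) and Nkx6-2 in PDGF+p53-/-RBPjk-/- tumours (-0.44, adjusted p = 0.0146). None of the list fell without the fourth normal brain array: St18 was then -0.93 (adjusted p = 0.0598) and -0.82 (adjusted p = 0.0865), and Nkx6-2 -0.35 (adjusted p = 0.059). The calls on St18 were lost also without PDGF+p53-/- replicate 1 in that type and without p53-/-RBPjk-/- replicate 1 or 2 in the other.

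Genes that mark the passage from precursor to oligodendrocyte were mixed. Of 9 measured, 4, 5 and 4 rose and 1, 1 and 2 fell in PDGF+p53-/-, PDGF+p53-/-RBPjk-/- and p53-/-RBPjk-/- tumours. Among all genes 13.6%, 15.7% and 16.4% rose and 17.6%, 17.9% and 20.4% fell. Bcas1, a marker of early myelinating cells, rose by 1.19, 1.15 and 0.98, and the kinase gene Fyn by 1.06, 1.14 and 0.74. Itpr2, a calcium channel of the endoplasmic reticulum that marks differentiating cells, rose by 1.53, 1.58 and 2.08. Gpr17, a receptor of committed precursors that is also in the precursor list, rose by 2.02, 2.20 and 1.41. Named after their values were seen, the ligand gene Bmp4 rose in PDGF+p53-/-RBPjk-/- tumours (0.64, limma adjusted p = 0.0104) and Rras2 fell by 0.71, 0.64 and 0.48. The last of these, in p53-/-RBPjk-/- tumours, was lost on leaving out any of 5 arrays (normal brain replicates 3 and 4, p53-/-RBPjk-/- replicates 2, 3 and 4; adjusted p up to 0.142).

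Enpp6, a phosphodiesterase of newly forming oligodendrocytes, was the gene of this list with the largest difference between tumour types. It read 5.89, 6.01, 6.67 and 6.93 in normal brain and 4.88, 5.23, 5.98 and 6.98 in PDGF+p53-/- tumours. It read 7.11, 7.29, 7.13 and 7.32 in PDGF+p53-/-RBPjk-/- tumours and 4.69, 4.46, 4.89 and 5.51 in p53-/-RBPjk-/- tumours. All 4 PDGF+p53-/-RBPjk-/- arrays were above every other array, and all 4 p53-/-RBPjk-/- arrays were below normal brain. Against normal brain the p53-/-RBPjk-/- difference was -1.49 ± 0.35 (SE, limma adjusted p = 0.00239). The 2 types without RBPjk differed by -2.33 (adjusted p = 0.00219). PDGF+p53-/-RBPjk-/- minus PDGF+p53-/- was 1.45 (adjusted p = 0.442).

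Markers of other cell types moved at the same time. All 15 neuron markers fell in each tumour type, with medians of -3.00, -2.90 and -3.71, and Stmn2, a neuronal microtubule protein, differed by -3.61, -3.66 and -5.27. Their mean ranged from 7.04 to 8.17 in PDGF+p53-/-RBPjk-/- tumours and from 6.43 to 7.62 in p53-/-RBPjk-/- tumours. Of 10 astrocyte markers 8, 8 and 9 fell, beside 17.6%, 17.9% and 20.4% of all genes. Astrocyte means were 9.43 to 9.65 in normal brain and 7.56 to 9.05, 7.70 to 8.19 and 7.14 to 7.64 in the tumours. The third PDGF+p53-/- array, highest of its type for the 6 falling myelin genes, was also highest for the neuron and astrocyte means (8.51 and 9.05). Replicate 3 had the highest neuron mean (8.17 and 7.62) and astrocyte mean (8.19 and 7.64) in the other tumour types too. Its myelin mean was not the highest there: it was 7.61 in PDGF+p53-/-RBPjk-/- and 7.07 in p53-/-RBPjk-/- tumours, against 8.05 and 7.24 in replicate 4. Without it all 15 neuron markers still fell in PDGF+p53-/- tumours, as the 6 myelin genes did. The part of neuron and astrocyte content in the myelin gene differences was not tested.

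Markers of the choroid plexus, the tissue that secretes cerebrospinal fluid, varied among the normal brain arrays in part as the myelin genes did. Their mean over 7 genes was 5.78, 6.88, 5.48 and 6.90, so replicate 4 was highest and replicate 3 lowest, as for the myelin mean. Replicate 2 nearly equalled replicate 4 here, unlike in the myelin mean (8.80 and 9.81). Tumour arrays ranged from 5.05 to 5.65. Of the 7 genes 3, 4 and 3 fell in PDGF+p53-/-, PDGF+p53-/-RBPjk-/- and p53-/-RBPjk-/- tumours, and 1, 2 and 3 without normal brain replicate 4. The first of these counts was also 1 without normal brain replicate 2 or PDGF+p53-/- replicate 1 or 4, and 5 without normal brain replicate 3; the second was also 2 without normal brain replicate 2 or PDGF+p53-/-RBPjk-/- replicate 2 or 3. Ttr, the transthyretin gene, read 9.91, 13.14, 9.18 and 13.26 in normal brain and differed by -3.24, -4.00 and -4.96. Of 10 microglia markers 0, 0 and 6 fell and 0, 1 and 1 rose. Of 7 endothelial markers 2, 2 and 3 fell, and all 9 proliferation genes rose in each type. With all 16 arrays, 17.6%, 17.9% and 20.4% of all genes fell and 13.6%, 15.7% and 16.4% rose. The part of these cell types in the myelin gene differences was not tested.

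All 10 precursor markers rose in each type, with medians of 1.95, 2.07 and 1.68, among them Pdgfra (3.53, 3.26 and 3.87), the receptor for PDGF. Their mean was 7.45 to 7.64 in normal brain and 9.70 to 9.98, 9.69 to 9.99 and 9.27 to 9.94 in the tumours. Schwann cells, the myelinating glia of nerves, share Mbp, Mag, Mal and Cnp with oligodendrocytes. Of 6 Schwann cell markers measured, 3 rose and 1 fell in each type. Shares over all genes were 13.6%, 15.7% and 16.4% for rises and 17.6%, 17.9% and 20.4% for falls. Schwann cell marker means were 6.79 to 7.41 in normal brain and 7.95 to 8.11, 7.46 to 8.06 and 7.55 to 7.82 in the tumours. Pmp22, a peripheral myelin protein found in many other cells too, differed by 1.80, 1.47 and 0.95, and Cdh19 by 2.05, 1.09 and 2.06. Egr2, a regulator of myelination in nerves, differed by 1.91, 1.90 and 1.22, the last lost on leaving out any of 4 arrays (normal brain replicates 1 and 3, p53-/-RBPjk-/- replicates 2 and 3; adjusted p up to 0.127), and Drp2 fell by 0.68, 1.07 and 1.03. Their part in the levels of the 9 genes was not tested.

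**Figure D4:**
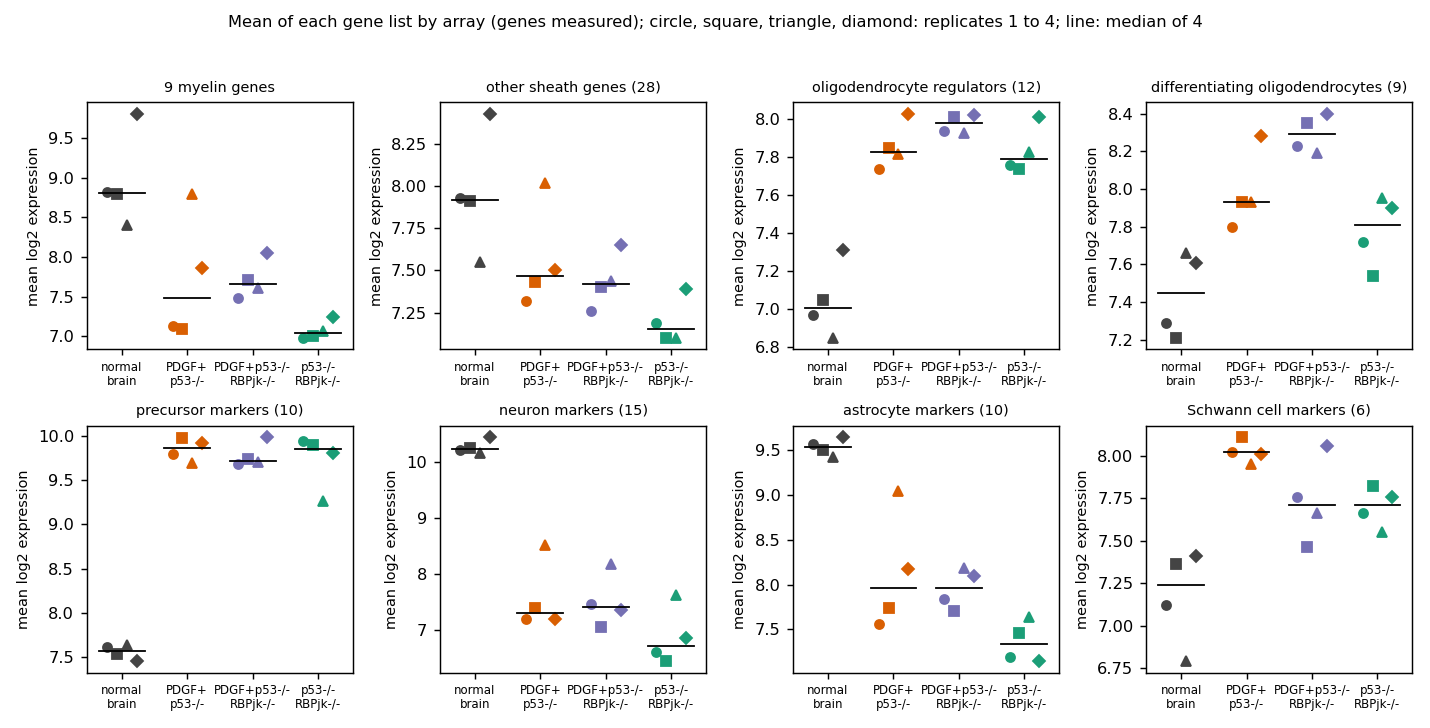
Mean log2 expression of the 9 myelin genes and of 7 other gene lists in each of the 16 arrays; symbols give the replicate number and lines the median of 4 arrays. Means of the 9 myelin genes and of the neuron and astrocyte markers were highest in replicate 3 (triangle) among the PDGF+p53-/- tumours, while the precursor means of all 12 tumour arrays, 9.27 to 9.99, lay above the 7.45 to 7.64 of normal brain.

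The genes whose course over the 16 arrays was most like the mean of the 9 were found by the root mean square difference after each was centred on its own average. The 9 genes themselves, gene models with no proper symbol and small RNAs were left out of this search. The 10 nearest of the rest were Kndc1 (0.26), Opalin (0.29), Septin4 (0.30), Trf (0.31), Cyp2j12 (0.34), Arc (0.35), Trim2 (0.36), Tspan2 (0.36), Atp13a5 (0.36) and Cacna2d2 (0.36), beside a median of 0.84 over all genes. Opalin, Septin4, Trf and Tspan2 were in the list of other sheath genes. Among the 9 themselves, which all enter their mean, Mbp was nearest to it (0.21), then Mag (0.36), Mog (0.40), Mal (0.53), Cnp (0.67), Aspa (0.76), Mobp (0.88), Cldn11 (0.92) and Ugt8a (1.07). Mobp, Cldn11 and Ugt8a were thus farther from that mean than the median of all genes. The values were not scaled, so a gene with the same course but larger differences also counts as far. Mobp fell in each tumour type (log2 differences -2.45, -2.67 and -3.94), whereas Cldn11 and Ugt8a did not pass the test in any. Opalin, a membrane protein of oligodendrocytes, differed from normal brain by -1.23 in PDGF+p53-/- tumours (limma adjusted p = 0.0469), a call that was lost in 18 of the alternative settings.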

How the data were processed

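The values are log2 expression per probe set, deposited by the authors and the submitters' processing notes name RMA (background correction, quantile normalization and summarisation) and oligo; versions were not given in the sources used here. RMA sets all arrays to nearly the same distribution, so a shift shared by most genes would not be seen. Probe sets were named through the platform annotation: 21789 of 35556 had 1 symbol, 1621 several and 12146 none. For the 1001 genes with more than 1 probe set, the brightest on average stood for the gene, which gave 19936 genes. Differences were fitted with limma 3.58.1 in R 4.3.3 (lmFit, eBayes) over all 16 arrays with group means, and p-values were adjusted by Benjamini-Hochberg over all genes. Single values were also compared by exact two-sided permutation in scipy 1.17.1. The scripts were tested on simulated data. Deviations of same-numbered arrays from their group means correlated with r from -0.12 to 0.18, and those of different-numbered arrays from -0.22 to 0.25. Between the replicate 3 arrays of the tumour types r was 0.16 to 0.18, within the range of different-numbered arrays. Since not every same-numbered pair passed 0.1, numbers were not treated as pairs. This rule cannot exclude a batch shared by some same-numbered arrays. All 9 genes are named; of every other list up to 4 called genes with the largest differences, and the 10 most alike genes, are named. The genes and lists were chosen with earlier results of these data known. Alternatives covered the choice of probe set, a filter on dim genes, housekeeping centring, further quantile normalization, trend and robust eBayes, the groups in the fit, array weights, a replicate block, a sex term and leaving out each array.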

Additional observations from a re-analysis of the deposited data

Results flagged for a closer look

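Groups of 4 arrays were checked for a value far from the other 3, over 76 groups formed by the 9 myelin genes and the 10 genes most like them, and 4 groups were singled out by the gap to the nearest value relative to the range (Dixon's test). Chance alone singles out about 1 group in 20. Aspa read 8.95 in normal brain replicate 4, while the other 3 normal arrays read 7.57 to 7.76. It read 7.72 in PDGF+p53-/- replicate 3, while the others read 4.34 to 4.86. Atp13a5 read 7.05 in normal brain replicate 2 against 7.61 to 7.67 in the others. In PDGF+p53-/-RBPjk-/- replicate 4 Atp13a5 read 6.97 against 5.94 to 6.06.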

How the results depend on the processing

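The falls of Mbp, Mog, Mag, Mobp and Mal from normal brain passed the test in all 3 tumour types under all 26 alternatives, and that of Aspa under the 25 that tested it; the filter on dim genes left Aspa out. The count of called genes against normal brain, 6 in each type, ranged from 5 to 7. With the 2 groups alone, 2 of the 9 genes differed between p53-/-RBPjk-/- and PDGF+p53-/-RBPjk-/- tumours, and with array weights 1; leaving out 1 array gave 0 to 1 there and 0 to 1 for p53-/-RBPjk-/- against PDGF+p53-/- tumours. Calls over all genes for p53-/-RBPjk-/- against PDGF+p53-/- tumours, 1105, became 289 with the 2 groups alone and 183 (0.918%) with a sex term. Those against PDGF+p53-/-RBPjk-/- tumours, 651, became 395, 61 (0.306%) and, with array weights, 1198. Those for PDGF+p53-/-RBPjk-/- against PDGF+p53-/- tumours, 4, became 2 with housekeeping centring or the replicate block. The replicate number as a block changed 1 of the calls on the 9 genes: Ugt8a in PDGF+p53-/-RBPjk-/- tumours passed (1.04, adjusted p = 0.0381). Ugt8a passed there with array weights (adjusted p = 0.0331) and quantile normalization (1.12, adjusted p = 0.0365) as well. All 4 p53-/-RBPjk-/- arrays, but 2 of 4 in normal brain and 1 of 4 in each PDGF-driven type, had the female expression pattern, and with a sex term the same difference was 1.16 (adjusted p = 0.0339).

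Signs turned only among differences that did not pass. In PDGF+p53-/-RBPjk-/- minus PDGF+p53-/- tumours, Mbp was -0.05 with quantile normalization. In p53-/-RBPjk-/- minus PDGF+p53-/- tumours, Cnp was 0.02 with housekeeping centring and Cldn11 -0.03 with a sex term. In p53-/-RBPjk-/- minus PDGF+p53-/-RBPjk-/- tumours, Cldn11 was 0.07 with housekeeping centring, 0.05 with quantile normalization and 0.08 with array weights, and Aspa was 0.06 with housekeeping centring and 0.13 with array weights. Leaving out 1 array gave ranges across 0. For PDGF+p53-/-RBPjk-/- minus PDGF+p53-/- these were -0.23 to 0.34 (Mbp), -0.49 to 0.31 (Mog), -0.01 to 0.73 (Mag), -0.68 to 0.49 (Mobp), -0.70 to 0.23 (Mal) and -0.50 to 0.62 (Aspa). For p53-/-RBPjk-/- minus PDGF+p53-/- they were -0.32 to 0.04 (Cnp), -0.07 to 0.31 (Cldn11) and -0.56 to 0.56 (Aspa), and for p53-/-RBPjk-/- minus PDGF+p53-/-RBPjk-/- -0.23 to 0.15 (Cldn11) and -0.28 to 0.22 (Aspa). Against normal brain they were -0.37 to 0.01 and -0.21 to 0.17 for Cnp in the PDGF-driven types, and -0.63 to 0.22 for Ugt8a in p53-/-RBPjk-/- tumours. Apart from leaving out arrays the cause was not tested. Housekeeping centring moved the median of all genes to -0.15 and -0.13 in the PDGF-driven types against normal brain.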
